A study of Mus musculus with 9 samples.

Results

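The genes described here are the glucocorticoid receptor gene *Nr3c1*, 7 genes commonly induced through this receptor (*Fkbp5*, *Tsc22d3*, *Cdkn1a*, *Sgk1*, *Zbtb16*, *Klf9* and *Errfi1*) and the metallothionein genes *Mt1* and *Mt2*, which were picked by symbol and make up 10 of the 18272 genes in the deposited table. They were picked with results of the same libraries known, so that their values and p-values describe these libraries and are no independent support for any pattern. Tibias of 3 NGT, 3 T1D and 3 Lira mice were analysed by RNA-seq, 1 library to a mouse, from female C57BL/6J mice bought at 10 to 11 weeks of age, to look for transcripts that change in the bone of diabetic mice and under liraglutide. T1D and Lira mice had received 1 intraperitoneal injection of streptozotocin (STZ), which kills pancreatic beta cells, and had high blood glucose before treatment. NGT mice (normal glucose tolerance) had received the citrate vehicle. NGT and T1D mice were then given saline. Lira mice were given 0.6 mg/kg/day of the GLP-1 receptor agonist liraglutide, without insulin. The paper reports lower blood glucose under liraglutide than in T1D mice, above all later in the treatment. T1D and Lira mice thus differed in blood glucose as well as in the drug. The labels give 8 weeks of liraglutide for Lira mice 1 and 2 and 9 weeks for Lira mouse 3. Beta-cell loss in this model is chemical and not autoimmune.

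Glucocorticoids such as corticosterone cross the cell membrane and bind the receptor encoded by *Nr3c1*, which is held ready in the cytoplasm by Hsp90 and its co-chaperones, moves into the nucleus and binds glucocorticoid response elements in the DNA. Induced genes include *Fkbp5*, whose protein lowers the receptor's affinity for hormone and closes a feedback loop, and *Tsc22d3*, which encodes the anti-inflammatory protein GILZ. In bone, an excess of glucocorticoid is a well-known cause of bone loss, and in skeletal muscle it drives the breakdown of protein. Metallothioneins are small cysteine-rich proteins that bind zinc and copper, and their genes respond to metals through the factor MTF-1 and also to glucocorticoids.

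Promoter sequence from RefSeq (mouse build GRCm38.p6) was read for the 8 members that the RefSeq promoter table held and that were searched, in 17 windows of 250 bases directly before an annotated start site, and 3 windows are printed because they carry the receptor's or the metal-responsive motif. The full palindromic glucocorticoid response element is AGAACA and TGTTCT with 3 bases between them, in capitals in the *Sgk1* window. Its half-sites are each other's reverse complement. It was found in 1 of the 17 windows, that of start site 5 of the 6 annotated for *Sgk1*. Of the 32851 windows searched, 0.009% held it, and not every window of the table was searched. In *Sgk1* its first base lies 189 bases before the start, in the window chr10:21993640-21993889 on the plus strand.

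Sgk1: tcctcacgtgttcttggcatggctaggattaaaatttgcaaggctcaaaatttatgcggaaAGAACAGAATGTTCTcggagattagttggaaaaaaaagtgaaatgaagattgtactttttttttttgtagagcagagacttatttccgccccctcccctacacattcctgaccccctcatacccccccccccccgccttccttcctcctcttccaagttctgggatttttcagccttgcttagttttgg

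The shorter core ACANNNTGT, which the full element contains, was present in 2 *Sgk1* windows and in the *Mt1* window, against 5.84% of the windows searched. The core of the metal response element, read as TGCACNC or TGCGCNC on both strands, was found in 21.4% of the windows searched. Among the members it was found in those of *Mt1* and *Mt2* alone. *Mt1* has 1 match, which begins 23 bases before its start, in chr8:94178839-94179088 on the plus strand, and *Mt2* has 3, which begin 223, 128 and 50 bases before its start, in chr8:94172368-94172617 on the plus strand. Capitals mark these matches, and the last of the *Mt2* matches is on the minus strand.

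Mt1: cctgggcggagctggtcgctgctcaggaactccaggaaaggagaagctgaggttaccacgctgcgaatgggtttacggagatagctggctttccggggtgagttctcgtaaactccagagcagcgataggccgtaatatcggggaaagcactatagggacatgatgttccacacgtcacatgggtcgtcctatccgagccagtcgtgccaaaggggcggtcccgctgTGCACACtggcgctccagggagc

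Mt2: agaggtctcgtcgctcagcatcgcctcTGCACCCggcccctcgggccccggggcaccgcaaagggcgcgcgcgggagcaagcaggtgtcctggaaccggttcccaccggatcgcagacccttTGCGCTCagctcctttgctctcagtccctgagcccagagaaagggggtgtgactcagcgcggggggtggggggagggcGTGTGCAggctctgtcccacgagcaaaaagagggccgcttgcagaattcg

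With the 50 bases after the start included, windows of 300 bases hold 3 matches for *Mt1* and 4 for *Mt2*. Of the windows searched, 1.97% and 0.518% hold as many. A match of letters is a description of the sequence and says nothing of binding in these tibias. The *Mt1* and *Mt2* transcripts share no identical stretch longer than 20 bases, and their expected counts were whole numbers in all 9 libraries.

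The library totals were between 13086373 and 16528394 expected counts, and the test covered the 13960 genes that reached 10 counts in 3 or more libraries, all 10 members included. Levels are given as CPM, the usual count per unit of library size, here after TMM scaling. The spread between mice was large, edgeR's estimate of the SD between mice of a group being 0.433 of a gene's mean. Skeletal muscle transcripts, 19 of 19 listed genes, took 14.0% of the counts in T1D mouse 1 to 25.7% in T1D mouse 3, although the bones had been cleaned of muscle. Of 13 osteoblast and osteocyte genes, *Bglap*, *Sp7*, *Mepe* and *Sost* were at 0 in 1 mouse each, where a count of 0 allows up to 0.163 to 0.238 CPM depending on the library, and the list took between 0.019% (NGT mouse 2) and 0.728% (T1D mouse 1) of the counts. In T1D mouse 1 and Lira mouse 3, 962 and 968 tested genes were more than 1.5-fold above the next-highest library, against 18 to 158 genes in each of the other libraries. In such bulk tissue, fewer cells of a type and less RNA per cell cannot be told apart.

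All members were well expressed. Per length of transcript, on the authors' FPKM scale, the mean level over the 9 mice was highest for *Mt1* (180 ± 131 FPKM, SD, n = 9) and *Mt2* (169 ± 153), followed by *Cdkn1a* (132 ± 79.6), *Tsc22d3* (107 ± 44.5), *Sgk1* (82.7 ± 24.9), *Klf9* (60.1 ± 15.8), *Fkbp5* (36.0 ± 19.8), *Errfi1* (25.2 ± 11.1), *Zbtb16* (23.6 ± 9.85) and *Nr3c1* (22.1 ± 1.88). Except for *Klf9* and *Fkbp5*, each gene in this order differed from the next by less than the larger of their SDs. *Nr3c1* had the smallest spread of the members relative to its level and *Mt2* the largest, by the coefficient of variation of the CPM over the 9 mice (13.9% for *Nr3c1*).

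**Figure D1:**
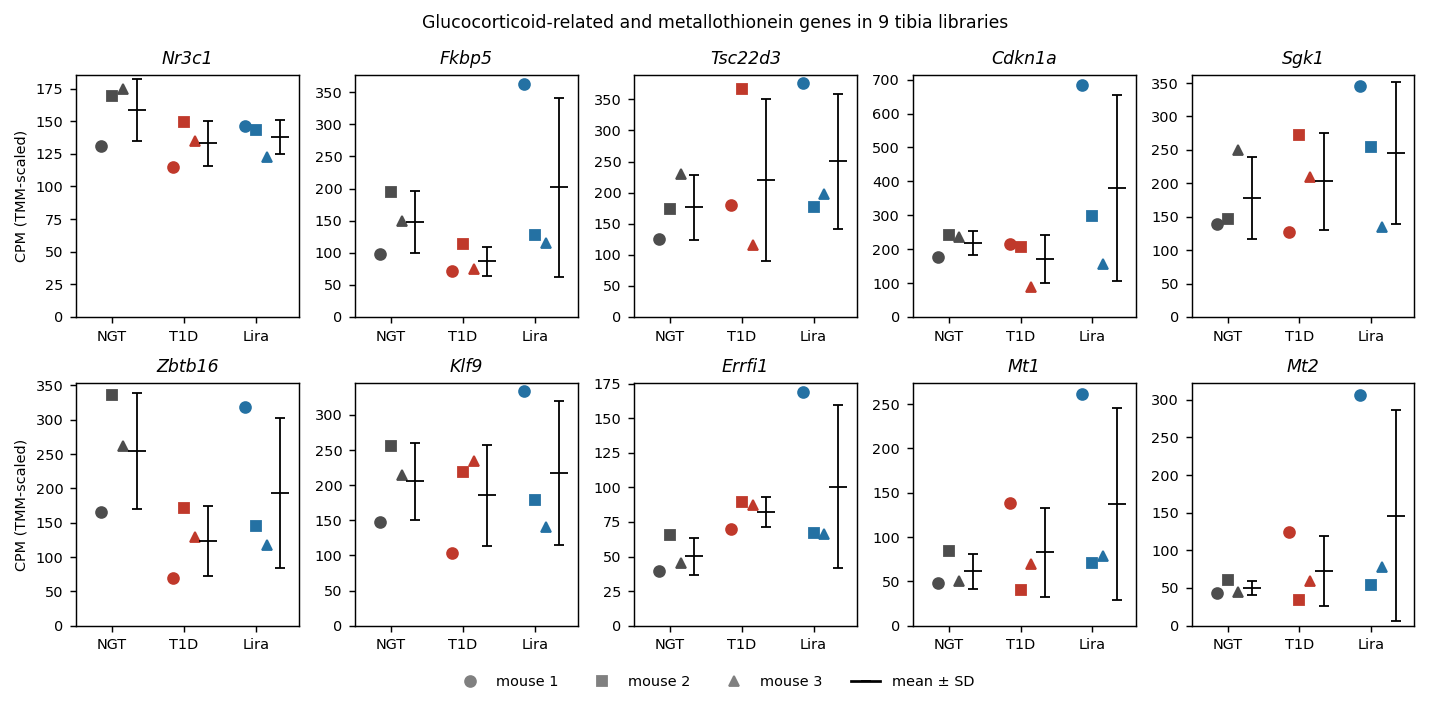
CPM of the 10 members (vertical axes, 1 panel per gene) in each of the 3 NGT, 3 T1D and 3 Lira mice, with symbols for the mouse number and a bar for the group mean ± SD (n = 3). In 8 of the 10 panels the highest point is Lira mouse 1, while in *Nr3c1* and *Zbtb16* it is an NGT mouse.

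The receptor itself varied little. *Nr3c1* (NCBI gene 14815) was at 131, 170 and 175 CPM in NGT mice 1 to 3, at 115, 149 and 135 CPM in T1D mice 1 to 3 and at 147, 144 and 123 CPM in Lira mice 1 to 3. The 3 groups overlapped, and its highest mouse exceeded its lowest 1.52-fold, less than for any other member. Group means were 159 ± 23.9 CPM in NGT, 133 ± 17.2 in T1D and 138 ± 13.0 in Lira mice (SD, n = 3).

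*Fkbp5* (NCBI gene 14229), the receptor's co-chaperone and feedback inhibitor, was at 97.7, 194 and 150 CPM in NGT mice 1 to 3, at 71.8, 113 and 74.4 CPM in T1D mice and at 363, 128 and 115 CPM in Lira mice. Lira mouse 1 stood at 1.87 times the next-highest mouse, NGT mouse 2. All Lira mice were above all T1D mice, but by a narrow margin at the nearest pair, 115 CPM in Lira mouse 3 against 113 CPM in T1D mouse 2. With 3 against 3 mice the exact two-sided permutation test gave p = 0.1, the smallest value it can give.

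Of the target genes that encode regulators of transcription, *Tsc22d3* (NCBI gene 14605), coding for GILZ, was at 125, 173 and 230 CPM in NGT mice 1 to 3, at 180, 366 and 116 CPM in T1D mice and at 376, 177 and 197 CPM in Lira mice. T1D mouse 2 and Lira mouse 1 were nearly equal at the top, and all groups overlapped. *Zbtb16* (NCBI gene 235320), coding for the zinc finger repressor PLZF, was at 166, 336 and 262 CPM in NGT mice, at 69.9, 172 and 130 CPM in T1D mice and at 319, 145 and 118 CPM in Lira mice. Here NGT mouse 2 was highest and T1D mouse 1 lowest, and NGT mouse 1 lay below T1D mouse 2. *Klf9* (NCBI gene 16601), a Krüppel-like factor, was at 147, 255 and 214 CPM in NGT mice, at 103, 219 and 234 CPM in T1D mice and at 334, 179 and 140 CPM in Lira mice, again with Lira mouse 1 at the top and T1D mouse 1 at the bottom.

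Of the targets that act in signalling and the cell cycle, *Sgk1* (NCBI gene 20393), a kinase of the insulin and growth factor pathway whose window above holds the full response element, was at 139, 146 and 249 CPM in NGT mice 1 to 3, at 128, 272 and 210 CPM in T1D mice and at 346, 254 and 134 CPM in Lira mice. The groups overlapped throughout. *Errfi1* (NCBI gene 74155), a feedback inhibitor of the EGF receptor, was at 39.4, 65.4 and 45.3 CPM in NGT mice, at 70.1, 89.2 and 87.6 CPM in T1D mice and at 169, 66.8 and 66.1 CPM in Lira mice. All 6 STZ-treated mice were above the 3 NGT mice, though NGT mouse 2 (65.4 CPM) and Lira mouse 3 (66.1 CPM) were almost equal. *Cdkn1a* (NCBI gene 12575), coding for the cell cycle inhibitor p21, which is induced by p53 as well, was at 176, 242 and 235 CPM in NGT mice, at 217, 206 and 87.8 CPM in T1D mice and at 685, 298 and 157 CPM in Lira mice. Lira mouse 1 was at 2.30 times the next mouse, while Lira mouse 3 fell below all NGT mice.

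The metallothioneins had the largest coefficients of variation of the members over the 9 mice, 73.9% for *Mt1* and 95.7% for *Mt2*. *Mt1* (NCBI gene 17748) was at 48.6, 84.4 and 50.7 CPM in NGT mice 1 to 3, at 138, 40.2 and 69.6 CPM in T1D mice and at 262, 71.2 and 78.3 CPM in Lira mice. *Mt2* (NCBI gene 17750) was at 43.7, 60.8 and 44.8 CPM in NGT mice, at 124, 33.9 and 59.8 CPM in T1D mice and at 307, 54.1 and 77.3 CPM in Lira mice. Both genes were highest in Lira mouse 1, next in T1D mouse 1 and lowest in T1D mouse 2. The ratio of *Mt2* to *Mt1* CPM was between 0.720 and 0.987 in 8 mice and 1.17 in Lira mouse 1.

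Between T1D and NGT mice, which asks what diabetes changed, *Errfi1* had the largest positive and *Zbtb16* the largest negative difference of the members, and no member passed the test. The log2 fold change was 0.72 ± 0.38 (SE) for *Errfi1* and -1.04 ± 0.47 for *Zbtb16*, the PLZF gene, with an adjusted p of 0.977 for both (edgeR's quasi-likelihood test over all tested genes with Benjamini-Hochberg adjustment, used for every fold change here). *Fkbp5* differed by -0.77 ± 0.47, *Mt2* by 0.55 ± 0.67, *Mt1* by 0.43 ± 0.59 and *Nr3c1* by -0.25 ± 0.18, while *Cdkn1a* (-0.36), *Tsc22d3* (0.32), *Sgk1* (0.19) and *Klf9* (-0.15) had standard errors of 0.41 to 0.52. Of the members 5 were above and 5 below 0, with a median of 0.02, as over all tested genes (0.02). Of all tested genes 0% were called at an adjusted p under 0.05 and a fold over 2, and 3.95% had an unadjusted p under 0.05, which 0 of the 10 members had. The count of all tested genes with such a p was 552 with all mice. With 1 mouse left out it was 224 (without NGT mouse 2) to 1007 (without NGT mouse 1). The 0 among the members also depended on the setting. With only the NGT and T1D mice fitted, *Fkbp5* (unadjusted p = 0.0442), *Zbtb16* (0.0359) and *Errfi1* (0.0181) were under 0.05 by edgeR, and over 15 alternative settings *Zbtb16* was so in 7, *Errfi1* in 5 and *Fkbp5* in 1. *Errfi1* was the only member whose T1D mice were all above the NGT mice, as were 3.52% of all tested genes, and 0 members had all T1D mice below the NGT mice, as 5.08% of all tested genes had. Taken as same-numbered pairs of an NGT and a T1D mouse, *Nr3c1*, *Fkbp5* and *Zbtb16* were lower in the T1D mouse of all 3 pairs, as were 19.0% of all tested genes, and *Errfi1* was higher in all 3, as were 19.2%. Without T1D mouse 1, the differences of *Mt1* and *Mt2* were -0.16 and -0.09 and that of *Klf9* was 0.14, so that the positive sign of both metallothioneins rested on this mouse. Without T1D mouse 2, *Tsc22d3* was at -0.25 and *Sgk1* at -0.08, and 3 members were above and 7 below 0, with a median of -0.27. Without NGT mouse 2, *Klf9* was at 0.04. *Cdkn1a* was at -0.04 without T1D mouse 3, and *Sgk1* was at 0.51 without NGT mouse 3. With each of the 6 mice left out in turn, *Fkbp5* stayed between -1.01 and -0.52, *Zbtb16* between -1.35 and -0.76 and *Errfi1* between 0.57 and 0.96.

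The skeletal muscle list was at a mean log2(CPM + 1) of 12.88 in NGT and 12.58 in T1D mice. With its level as a covariate in the comparison of T1D with NGT mice, *Zbtb16* was at -0.68, *Fkbp5* at -0.46, *Nr3c1* at -0.13 and *Klf9* at 0.15, while *Errfi1* was at 0.93. With the replicate number of all 9 mice as a block, *Mt1* was at 0.17 and *Mt2* at 0.21.

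**Figure D2:**
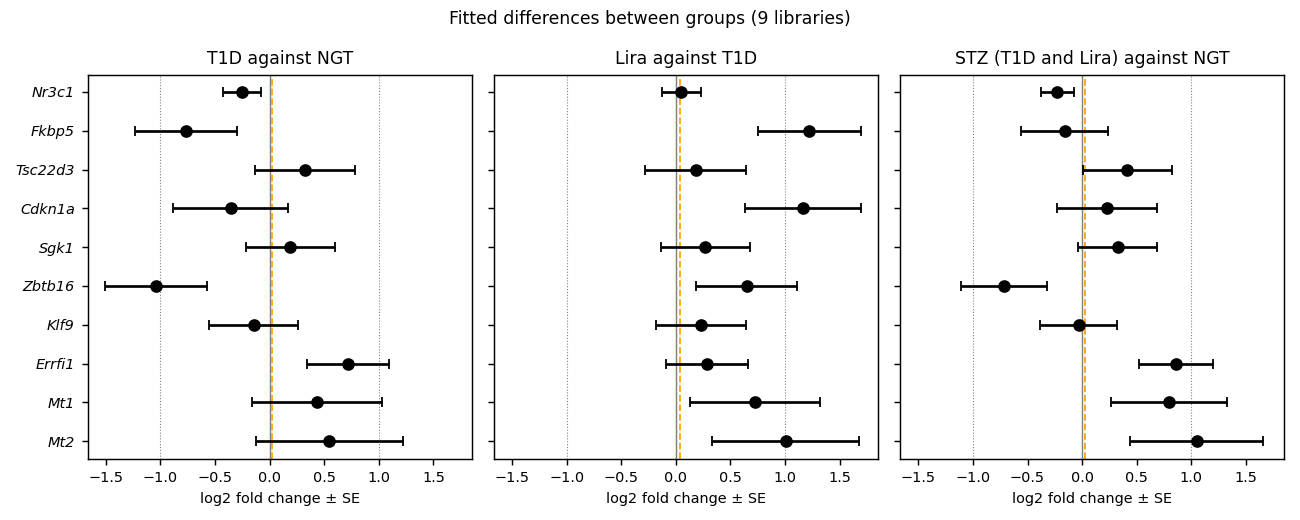
Fitted log2 fold change ± SE of the 10 members (horizontal axes) in the 3 comparisons, from the fit over all 9 libraries. Dotted lines mark a 2-fold change and dashed lines the median of all tested genes, and 10 of 10 members lie above 0 in Lira against T1D, with *Fkbp5*, *Cdkn1a* and *Mt2* past the 2-fold line.

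Between Lira and T1D mice, which asks what liraglutide changed, all 10 members had a positive log2 fold change, and again no member passed the test. The largest were *Fkbp5* (1.22 ± 0.47, SE), *Cdkn1a* (1.16 ± 0.53) and *Mt2* (1.01 ± 0.67), followed by *Mt1* (0.73) and *Zbtb16* (0.65), and the smallest was that of the receptor *Nr3c1* (0.05 ± 0.18). Adjusted p-values of the members were 0.978 to 0.987 by the same edgeR test. The median of the members was 0.47 and that of all tested genes 0.04. Here too 0% of all tested genes were called, and 3.33% had an unadjusted p under 0.05, among them 1 member, *Fkbp5*, the co-chaperone gene, which kept such a p in 9 of 15 alternative settings, while *Cdkn1a* had one in 4. *Fkbp5* was also the only member with all Lira mice above the T1D mice, which 3.74% of all tested genes showed, and 0 members had all Lira mice below, which 3.40% of all tested genes showed. T1D mice enter both comparisons, so a gene low in T1D mice is negative in the first and positive in the second for that reason alone.

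Of the 10 positive signs, 6 rested on 1 mouse. Without Lira mouse 1, 4 members were above and 6 below 0, with a median of -0.10. *Fkbp5* was then at 0.49, *Cdkn1a* at 0.42, *Zbtb16* at 0.08 and *Nr3c1* at 0.00. *Errfi1* was at -0.31, *Tsc22d3* at -0.24, *Klf9* at -0.22, *Mt1* and *Mt2* at -0.15 and *Sgk1* at -0.06. Without both Lira mouse 1 and T1D mouse 1, the division was again 4 to 6, but *Mt1* and *Mt2* were at 0.45 and 0.49, so that the sign for the metallothioneins turned on which single mice were counted. Without T1D mouse 1 alone, *Nr3c1* was at -0.04 and *Klf9* at -0.06, while *Mt1* rose to 1.32 and *Mt2* to 1.64. Without T1D mouse 3 *Tsc22d3* was at -0.13, and with 1 mouse left out it lay between -0.24 and 0.75. With the level of the skeletal muscle list as a covariate, 7 members were above 0, with *Nr3c1* at -0.07, *Klf9* at -0.07 and *Sgk1* at -0.03.

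**Figure D3:**
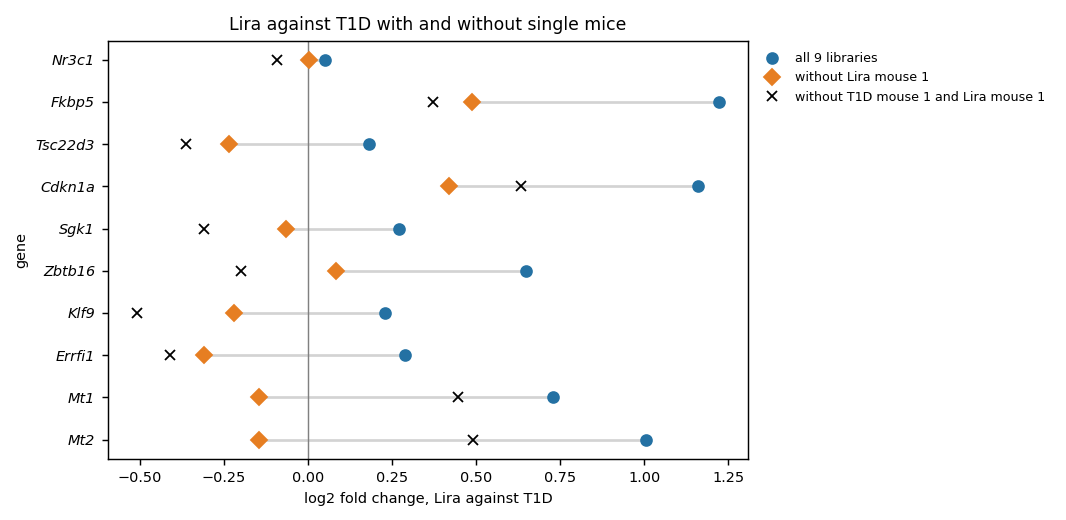
Log2 fold change of the 10 members in Lira against T1D mice (horizontal axis) with all 9 libraries, without Lira mouse 1, and without both T1D mouse 1 and Lira mouse 1. Leaving out Lira mouse 1 moves every member to the left, and 6 of the 10 to below 0.

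For STZ-treated mice as a whole (6 T1D and Lira mice) against the 3 NGT mice, *Errfi1* stood at 0.86 ± 0.34 (SE), *Mt2* at 1.05 ± 0.61, *Mt1* at 0.80 ± 0.53 and *Zbtb16* at -0.72 ± 0.39, and no member passed the test (adjusted p of 0.999 or more by edgeR). The other 6 members lay between -0.23 (*Nr3c1*) and 0.42 (*Tsc22d3*, at 0.12 without T1D mouse 2 and 0.65 without NGT mouse 3). Of all tested genes 0% were called and 1.80% had an unadjusted p under 0.05, among them 1 member, *Errfi1*, which kept such a p in 13 of 18 alternative settings, while *Zbtb16* had one in 3. *Errfi1*, the EGF receptor inhibitor, was also the only member whose STZ-treated mice were all above the NGT mice, as were 0.444% of all tested genes. Its exact two-sided permutation test gave p = 0.0238, the smallest value that 6 against 3 allow. This p restates the lack of overlap and is not adjusted over the members. In 0.372% of all tested genes, but in 0 members, the STZ-treated mice were all below the NGT mice. Without Lira mouse 1, *Errfi1* was at 0.56, *Zbtb16* at -0.998, *Mt2* at 0.47, *Mt1* at 0.36 and *Cdkn1a* at -0.15 (0.22 with all mice). Without both Lira mouse 1 and T1D mouse 1, *Mt2* was at 0.16 and *Mt1* at 0.07. *Zbtb16* was at -0.47 without NGT mouse 2. *Fkbp5* was at -0.16 with all mice and at 0.09 without NGT mouse 2, and *Klf9*, at -0.03 with all mice, turned positive without NGT mouse 2, T1D mouse 1, Lira mouse 2 or Lira mouse 3, at 0.03 to 0.15. With the muscle list as a covariate *Errfi1* was at 0.97 and *Zbtb16* at -0.52, and with the replicate block *Mt1* was at 0.50 and *Mt2* at 0.63.

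Lira mouse 1 was thus the mouse in which these genes were high together. It was the highest of the 9 mice in 8 of the 10 members, whereas it was the highest in 9.92% of all tested genes, and in 5 of the 10 (*Fkbp5*, *Cdkn1a*, *Errfi1*, *Mt1* and *Mt2*) it exceeded the next mouse more than 1.5-fold, which it did in 1.13% of all tested genes. Its level relative to the median of the other 8 mice was 5.39-fold for *Mt2*, 3.72-fold for *Mt1*, 3.25-fold for *Cdkn1a*, 3.18-fold for *Fkbp5* and 1.05-fold for *Nr3c1*. The receptor's own transcript was therefore near the middle in the mouse in which most of the other members were at their highest. T1D mouse 1 was the lowest in 5 of the 10 members (*Nr3c1*, *Fkbp5*, *Sgk1*, *Zbtb16* and *Klf9*), and the lowest in 23.8% of all tested genes.

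A wider list of 30 other glucocorticoid-induced genes, of which 29 were tested (all but *Tat*), was also high in this mouse. Lira mouse 1 was the highest in 18 of the 29, more than 1.5-fold above the next mouse in 8, and 1.82-fold above the median of the other mice at the middle of the list, against 0.985-fold over all tested genes. The same mouse was the lowest in 2 of the 29, *Dusp1* (58.7 CPM) and *Bcl6* (66.9 CPM), named after their values were seen. The mean log2(CPM + 1) of the list was 7.12 in Lira mouse 1 and 6.07 to 6.47 in the other 8 mice. The list holds several genes of muscle protein breakdown and fuel use, and these were among its most abundant.

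*Pdk4*, which limits glucose oxidation, was at 6029 CPM in Lira mouse 1 and at 297 (T1D mouse 1) to 3641 CPM (NGT mouse 2) in the others. *Fbxo32* and *Trim63*, the ubiquitin ligases of muscle wasting known as atrogin-1 and MuRF1, were at 2604 and 2560 CPM in Lira mouse 1, with the next-highest values in NGT mouse 2 (1929 and 1023 CPM). *Txnip*, an inhibitor of thioredoxin that responds to glucose, was at 2064 CPM against 485 to 1183 CPM. The stress-induced mTOR inhibitor *Ddit4* was at 254 CPM against 17.1 to 105 CPM. These 5 genes, the most abundant or most different of the list, were thus all highest in the same mouse as 8 of the members. By contrast *Lcn2*, *Anxa1*, *Il1r2*, *Dusp1* and *Azin1* were highest in Lira mouse 3, and they are named after their values were seen.

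**Figure D4:**
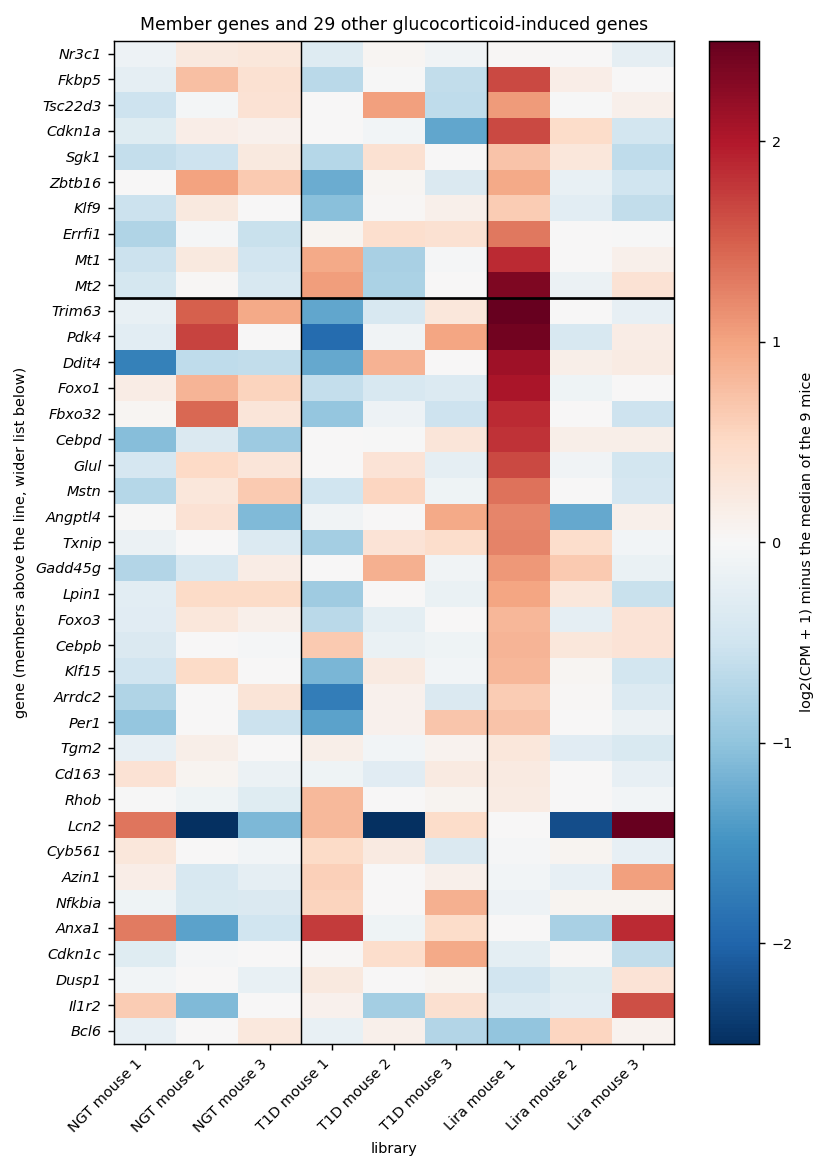
Log2(CPM + 1) of each gene (rows) in each of the 9 libraries (columns), as the difference from the gene's median over the 9 mice, for the 10 members (above the line) and the 29 tested genes of the wider list (below it, ordered by Lira mouse 1 over the median of the other mice). Lira mouse 1 is the highest in 8 of the 10 members and in 18 of the 29 other genes.

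In the group comparisons 0 of the 29 genes were called. In Lira against T1D mice 21 were above and 8 below 0, with a median log2 fold change of 0.46 (0.04 over all tested genes), in T1D against NGT mice 16 were above and 13 below (median 0.08, all tested genes 0.02), and in STZ-treated against NGT mice 17 were above and 12 below (median 0.19, all tested genes 0.03). Without Lira mouse 1, the median of the list in Lira against T1D mice was 0.04, with 16 genes above and 13 below 0 (0.05 over all tested genes), and in STZ-treated against NGT mice it was 0.11. Without T1D mouse 1 the median in T1D against NGT mice was -0.01, with 14 above and 15 below 0, and without NGT mouse 1 it was 0.20. In STZ-treated against NGT mice it lay between 0.09 (without Lira mouse 3) and 0.26 (without NGT mouse 3). In Lira against T1D mice, unadjusted p-values under 0.05 went to 1 gene with a positive log2 fold change, *Foxo1* (1.46), and to 2 with a negative one, *Nfkbia*, the NF-κB inhibitor (-0.53), and *Cdkn1c* (-0.82). In T1D against NGT mice they went to *Nfkbia* (0.82) and *Cdkn1c* (0.66), and in STZ-treated against NGT mice to *Ddit4* (1.56), *Cebpd* (1.27) and *Nfkbia* (0.56), all positive.

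None of the cell type lists was highest in Lira mouse 1, whose values stood within the range of the other mice for skeletal muscle (12.98, others 12.04 to 13.24, as mean log2(CPM + 1)), neutrophils (5.14, others 0.57 to 7.76), erythroid cells (6.74, others 3.13 to 9.41), osteoblasts and osteocytes (3.90, others 1.73 to 5.42), and 5 measured of 10 inflammation genes (2.37, others 1.25 to 3.98). The same held for osteoclasts, macrophages, B cells, adipocytes and endothelial cells. In T1D mouse 1, which had the next-highest metallothionein values, the muscle list was at its lowest and the osteoblast, osteoclast, macrophage, adipocyte and inflammation lists at their highest, and the part of this in its member values was not tested.

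The genes that fold the receptor, supply its hormone and carry its signal gave no call. Of 13 tested genes of receptor and hormone handling (all but *Hsd11b2* of 14), 0 were called and 0 had an unadjusted p under 0.05 in any of the 3 comparisons, with medians of -0.10, 0.11 and -0.07 in T1D against NGT, Lira against T1D and STZ-treated against NGT mice. With 1 mouse left out, these medians lay between -0.23 and -0.03, between 0.04 and 0.16, and between -0.17 and -0.01. The chaperone genes *Hspa8* and *Hsp90ab1* had means of 1870 ± 212 and 1447 ± 243 CPM in NGT, 1739 ± 364 and 1248 ± 169 CPM in T1D and 1871 ± 247 and 1343 ± 113 CPM in Lira mice (SD, n = 3). *Hsd11b1*, the enzyme that regenerates active glucocorticoid inside cells, was at 4.80 ± 1.01, 7.49 ± 3.10 and 7.84 ± 2.15 CPM, and its difference between T1D and NGT mice was 0.64 ± 0.38 (SE, adjusted p = 0.977, edgeR). The mineralocorticoid receptor gene *Nr3c2*, whose protein also binds corticosterone, differed by -0.58 ± 0.41 and the coactivator gene *Ncoa2* by -0.35 ± 0.17.

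The other lists set *Cdkn1a* beside the p53 pathway, the metallothioneins beside metal handling and *Klf9* beside clock genes, since glucocorticoids also set peripheral clocks. Of 17 tested p53 targets 0 were called, with medians of 0.19, 0.08 and 0.29 in the 3 comparisons in the same order, and *Btg2* had an unadjusted p under 0.05 in the last 2. The Lira against T1D median was -0.04 without Lira mouse 1 and -0.01 without T1D mouse 1 or Lira mouse 2, so that its sign depended on single mice, and the other medians lay between 0.14 and 0.33 and between 0.15 and 0.35 with 1 mouse left out. *Sesn1*, a p53 and FoxO target, was at 342 CPM in Lira mouse 1 and at 53.4 to 119 CPM in the others, whereas *Ccng1* was highest in NGT mouse 3 (1810 CPM), *Phlda3* in Lira mouse 2 (192 CPM), *Eda2r* in T1D mouse 2 (57.6 CPM) and *Bax* in T1D mouse 1 (20.8 CPM). Lira mouse 1 was the highest in 4 of the 17 genes, *Sesn1* among them, and the mean log2(CPM + 1) of the list was also highest in this mouse (4.67, others 4.03 to 4.40).

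Of 16 tested genes of metal handling 0 were called, with medians of 0.08, 0.08 and 0.11. Single mice turned the sign of the first 2 medians. That of T1D against NGT was -0.01 without NGT mouse 1 and 0.18 without T1D mouse 2, and that of Lira against T1D was -0.18 without Lira mouse 3 and -0.03 without T1D mouse 2, while that of STZ-treated against NGT mice lay between 0.05 and 0.12. The mean log2(CPM + 1) of this list, too, was highest in Lira mouse 1 (4.22, others 3.87 to 4.15), which was the highest in 3 of the 16 genes. The third metallothionein *Mt3* had an unadjusted p under 0.05 in T1D (1.91 ± 0.56, SE) and in STZ-treated (1.37 ± 0.51) against NGT mice. In Lira against T1D mice it was at -1.08 ± 0.54, whereas *Mt1* and *Mt2* were positive there. The zinc transporter gene *Slc30a2* had such a p in Lira against T1D mice (1.18 ± 0.41). The iron exporter gene *Slc40a1* was highest in Lira mouse 1 (122 CPM, others 15.4 to 83.0), and the haem oxygenase gene *Hmox1*, which is induced by haem and oxidative stress, was highest in T1D mouse 1 (42.2 CPM, others 6.65 to 23.0), the mouse next in *Mt1* and *Mt2*. Of 15 clock genes 0 were called, with medians of 0.24, -0.28 and 0.04. The first 2 signs rested on T1D mouse 3, without which the T1D against NGT median was -0.17 (7 above and 8 below 0) and the Lira against T1D median 0.14 (9 above and 6 below), and the third lay between -0.08 and 0.11 with 1 mouse left out. *Dbp*, a rhythmic output gene, was at 39.5 CPM in T1D mouse 3 and at 4.64 to 12.6 CPM in the other 8 mice, and its Lira against T1D difference of -1.61 ± 0.69 (SE) had an unadjusted p under 0.05. *Per2* was likewise highest in T1D mouse 3 (15.9 CPM), as were *Tef* (394 CPM) and *Nr1d2* (151 CPM), while *Nr1d1* was highest in NGT mouse 2 (323 CPM). Lira mouse 1 was the highest in 2 of the 15 clock genes, and its list level of 4.88 was within the range of the others (4.50 to 5.43).

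Across the 9 mice *Mt1* and *Mt2* went together closely. On the log2(CPM + 1) scale, Pearson's r was 0.985 (exact permutation p = 4.13e-05, adjusted over the 45 member pairs 0.00186) and Spearman's rho 0.967 (exact permutation p = 0.000165, adjusted 0.00744). Without the 2 mice farthest from the *Mt1* median, T1D mouse 1 and Lira mouse 1, r was 0.926. This was the only 1 of the 45 pairs with an adjusted p under 0.05, and 11 pairs had an unadjusted one. Within groups, as deviations from the group means, r was 0.980, and 0 pairs had an adjusted p under 0.05. The 216 rearrangements within groups allow no p under 0.00463, which 4 pairs had, and the lowest adjusted p was 0.0521.

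The other pairs did not pass the adjustment. Of the 45 pairs 42 had a positive r, with a median of 0.51, and without Lira mouse 1 27 had one, with a median of 0.17. *Zbtb16* had r = 0.863 with *Nr3c1* (rho 0.867), 0.840 with *Fkbp5* (rho 0.800) and 0.842 with *Klf9* (rho 0.783), with exact permutation p of 0.0034, 0.00428 and 0.0052 for r (adjusted 0.0584 for each) and of 0.00451, 0.0138 and 0.0172 for rho (adjusted 0.101, 0.194 and 0.194). Without the 2 farthest mice these r were 0.796, 0.768 and 0.707, and without Lira mouse 1 they were 0.931, 0.864 and 0.795. *Mt2* and *Zbtb16* had r = 0.07 (rho -0.15, exact permutation p = 0.858 and 0.708, adjusted 0.878 and 0.817), and -0.64 without Lira mouse 1.

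**Figure D5:**
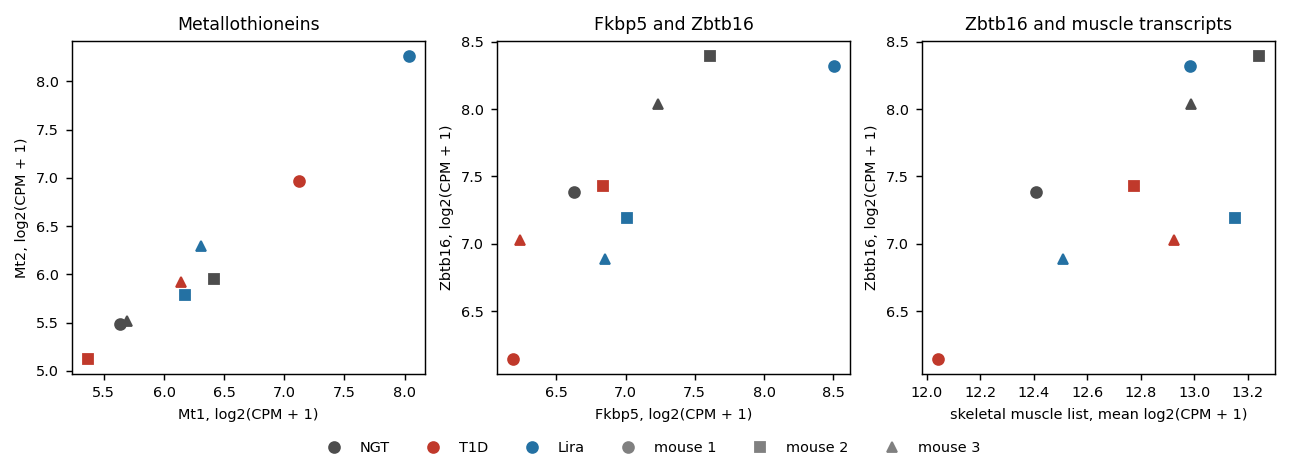
Levels in the 9 mice as log2(CPM + 1), for *Mt2* against *Mt1*, *Zbtb16* against *Fkbp5*, and *Zbtb16* against the mean of the 19 skeletal muscle genes. The metallothioneins lie near 1 line over all groups (r = 0.985), while *Zbtb16* follows *Fkbp5* (r = 0.840) and the muscle list (r = 0.756) more loosely.

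The levels of the members were also set against the make-up of the samples. Of 50 pairs of a member with the skeletal muscle, neutrophil, erythroid, osteoblast or inflammation list, 0 had an adjusted p under 0.05 and 8 an unadjusted one. *Nr3c1* had r = -0.893 with the inflammation list (rho -0.867, exact permutation p = 0.00124 for r and 0.00451 for rho, adjusted 0.0618 and 0.214) and 0.818 with the muscle list (rho 0.783, exact permutation p = 0.0068 and 0.0172, adjusted 0.113 and 0.214). Without the 2 mice farthest from the *Nr3c1* median these r were -0.918 and 0.789. *Klf9* had r = 0.820 with the muscle list (rho 0.667, exact permutation p = 0.00625 and 0.0589, adjusted 0.113 and 0.238), and 0.767 without its 2 farthest mice. *Zbtb16* had r = 0.756 (rho 0.683, exact permutation p = 0.0185 and 0.0503, adjusted 0.231 and 0.238), which fell to 0.365 without NGT mouse 2 and T1D mouse 1, on which the relation thus rested.

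Among all other tested genes of at least 5 CPM, those most like *Fkbp5* over the 9 mice were *Cstf1* (r = 0.965), *Elk1* (0.963) and *Sun2* (0.963), and those most like *Mt2* were *Ints12* (0.973), *Gar1* (0.953) and *Vegfd* (0.946), given as a description with no p. *Vegfd*, a growth factor of lymphatic vessels, was at 27.8 CPM in Lira mouse 1, 15.4 CPM in T1D mouse 1 and 5.43 CPM in T1D mouse 2, and *Sun2*, a protein of the nuclear envelope, was at 275 CPM in Lira mouse 1, 212 CPM in NGT mouse 2 and 139 CPM in T1D mouse 1. The highest, next and lowest mice of *Vegfd* and *Sun2* were those of *Mt2* and *Fkbp5*, as is likely for genes picked by their r.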

How the data were processed

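The authors cleaned 9 tibias of muscle, enriched mRNA with oligo(dT), sequenced it and deposited expected counts per gene, not normalized and headed as read counts, beside FPKM, scaled by the authors to gene length and total. Per the values, 30.2% of the expected counts were not whole. The submitters' processing notes name the build mm9, and the aligner and counter are not given in the sources used here. No coordinates come from the data, and promoter windows are those of RefSeq GRCm38.p6. All sample columns were mapped by their labels (0 left over). Group means and the authors' own comparisons were not used.

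The members and gene lists were chosen with earlier results of these data known. After rounding, genes that reached 10 expected counts in 3 or more of 9 libraries were kept, and 3 group means were fitted with edgeR 4.0.16 in R 4.3.3 (TMM, glmQLFit, glmQLFTest). Called genes had a Benjamini-Hochberg adjusted p under 0.05 and a fold over 2. Single-gene tests and correlations used log2(CPM + 1) and exact two-sided permutation (SciPy 1.17.1). Library totals were 13086373 to 16528394, and a count of 0 allows 3 counts, which covers counting error only. The fit was tested on simulated data.

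From each list, at most the 3 most abundant genes and the 3 with the largest T1D against NGT difference at 5 CPM or more are named, besides genes marked otherwise and those of unadjusted p, chosen after their values were seen. Alternatives were DESeq2 1.42.0, library size without TMM, no low-count filter, a replicate block, fits without the group not compared, no fold threshold, edgeR's robust option, limma 3.58.1 on log2(FPKM + 1) with the deposited FPKM, and leaving out each mouse. Chosen after seeing the data were leaving out T1D mouse 1 with Lira mouse 1, the muscle list as a covariate, and the gene lists without each mouse. Same-numbered NGT and T1D mice correlated at 0.583, 0.647 and 0.283 in their deviations from the group means over genes, and were taken as pairs by this check of the data alone. T1D and Lira mice (-0.244, 0.615 and 0.271) were not, nor were NGT and Lira mice (-0.173, 0.727 and 0.0125).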

Additional observations from a re-analysis of the deposited data

How the results depend on the processing

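The members were refitted 480 times in all, each in 1 comparison under 1 other setting, and 0 of the 477 refits with an adjusted p gave a call. DESeq2 gave no adjusted p for the other 3 (*Errfi1*, *Mt1* and *Mt2* in T1D against NGT). The log2 fold change kept its direction in 440 and had the other in 40, and it stayed within 1 SD between mice in 473. The 7 that moved farther were all from Lira against T1D mice without Lira mouse 1 or without both Lira mouse 1 and T1D mouse 1. The lowest adjusted p of a member was 0.342, for *Zbtb16* in T1D against NGT by DESeq2. In Lira against T1D mice, 9 members were above 0 with library size in place of TMM and 9 with limma on log2(FPKM + 1). Over all genes, DESeq2 called 1 gene in Lira against T1D mice (*Gpm6b*, adjusted p = 0.0367, no member) where edgeR called 0. The cause was not tested. With the replicate block, 0 genes were called in each comparison, no member's call changed, 399 genes in place of 251 had an unadjusted p under 0.05 in STZ-treated against NGT mice, and *Cdkn1a* was at -0.01 there in place of 0.22. The block also lowered the log2 fold change of *Mt1* from 0.43 to 0.17 and of *Mt2* from 0.55 to 0.21 in T1D against NGT mice. In STZ-treated against NGT mice it lowered them from 0.80 to 0.50 and from 1.05 to 0.63. The block joined the same-numbered mice of all 3 groups, Lira mice included, and so was not a pairing of NGT with T1D mice alone. The number of member pairs that correlated at an adjusted p under 0.05 was 0 as deviations from the group means and 1 to 3 with 1 mouse left out. The lowest level of a member in a mouse was 33.9 CPM, against at most 0.238 CPM that a count of 0 allows.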
